A study of Mus musculus with 3 samples.

Results

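The 10 genes described here carry the interferon-inducing arm of Toll-like receptor signalling and the sensing of RNA and DNA in the cytosol. They are the adaptors Ticam1 and Ticam2, the ubiquitin ligase Traf3, the kinases Tbk1 and Ikbke, the RNA helicases Ddx58, Ifih1 and Dhx58, and the adaptors Mavs and Tmem173. They were taken by symbol from the annotation and are 10 of 55536 annotated genes. No measured value entered that rule, but the genes were chosen with earlier results of these data known. Primary macrophages grown from the bone marrow of C57BL/6J mice were fractionated, and total RNA of the cytosol was depleted of ribosomal RNA and sequenced. All 3 libraries belong to 1 group, labelled as 0 min of treatment with lipid A (the membrane-anchoring part of bacterial lipopolysaccharide, a ligand of TLR4) at 100 ng/ml, and are called replicates 1, 2 and 3 after the labels. The labels give no genetic change, the same donor for all 3 libraries, and no sex or age. They call the libraries biological replicates, each with its own biosample, but do not tell whether these came from separate mice or cultures. Each SD therefore covers the variation among these libraries, and how much of it is technical is not known. With no other group, the data hold levels and their spread and no response to lipid A.

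Lipid A bound by TLR4 reaches the nucleus by more than one route. In the route followed here, TRAM (Ticam2) bridges the internalised receptor to TRIF (Ticam1), which recruits TRAF3 and the kinases TBK1 and IKK-epsilon (Ikbke) to activate the transcription factor IRF3 and so the interferon beta gene. TRIF also serves TLR3. RIG-I (Ddx58) and MDA5 (Ifih1) bind viral RNA in the cytosol and pass the signal to MAVS on the mitochondrial membrane, while LGP2 (Dhx58), which lacks their signalling domains, modulates both. STING (Tmem173) on the endoplasmic reticulum is activated by the cyclic dinucleotide that cGAS makes on cytosolic DNA. These branches meet at TBK1, and in many cell types the 3 helicase genes are themselves induced by interferon.

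Total gene counts were 26318761, 41897257 and 56290298 for replicates 1, 2 and 3. Levels below are TPM, transcript abundance scaled by length and to the same total in each library, which allows different genes to be set side by side. Protein-coding genes took 26.2%, 22.0% and 21.7% of TPM in the same order, so a coding gene of constant share among coding genes reads higher in replicate 1. All 8 macrophage markers were detected in every library, with a summed TPM of 5120 to 7320. Markers of T cells (0 of 5 detected), B cells (0 of 5), natural killer cells (0 of 4), conventional dendritic cells (0 of 5) and fibroblasts (0 of 4) summed to at most 0.87. Of 8 neutrophil markers 3 were detected, and the list summed to between 19.5 and 19.8. Of 5 plasmacytoid dendritic cell markers 2 were detected, Tcf4 and Bst2, and the list summed to 196, 106 and 106. Bst2, which is also interferon-stimulated, made up 178, 91.7 and 90.5 of these sums, and the defining gene Siglech was at 0.15, 0.26 and 0.24.

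All 10 genes were detected, at a TPM of at least 1 in every library. Of the 22028 annotated protein-coding genes, 9023 (41.0%) were detected by the same rule. The median over the 10 genes was 12.8, 8.63 and 8.68 TPM in replicates 1, 2 and 3, a mean of 10 ± 2.37 (SD, n = 3), beside 7.17 ± 0.728 for all detected protein-coding genes. The means ran from 3.18 for Traf3 to 23.9 for Ddx58. Each gene rested on 542 to 7350 expected counts in a library, which gives a counting error of 1.17% to 4.30%. Together the 10 genes held 0.0831%, 0.0633% and 0.0618% of all gene counts.

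**Figure D1:**
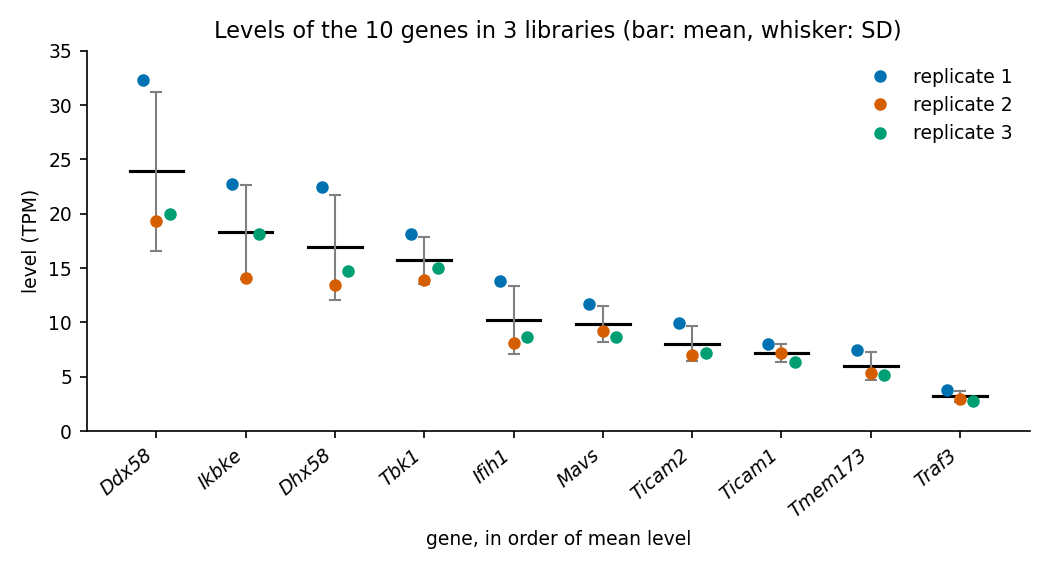
Level of each gene in TPM (vertical axis) in the 3 libraries (points), with the mean (bar) and SD (whisker, n = 3), genes in order of mean level. Replicate 1 is the highest point for every gene, and its distance from the others is largest in Ddx58, at 32.3 against 19.4 and 20.0 TPM.

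Of the RNA helicases, Ddx58 had the highest mean of the 10 genes, Dhx58 the third and Ifih1 the fifth. Ddx58 (ENSMUSG00000040296.15, mm10 chromosome 4, 40203773 to 40239828, minus strand), which encodes RIG-I, stood at 32.3, 19.4 and 20.0 TPM, a mean of 23.9 ± 7.32 (SD, n = 3), and ranked 1512 among the 9023 detected protein-coding genes. Dhx58 (ENSMUSG00000017830.15, chromosome 11, 100694884 to 100704271, minus strand), which encodes LGP2, stood at 22.5, 13.5 and 14.8 TPM, a mean of 16.9 ± 4.87 and rank 2181. Ifih1 (ENSMUSG00000026896.14, chromosome 2, 62595798 to 62646255, minus strand), which encodes MDA5, stood at 13.8, 8.09 and 8.70 TPM, a mean of 10.2 ± 3.13 and rank 3485. In each of them replicate 1 was high and replicates 2 and 3 were close to each other.

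The ratios between the helicases varied little from library to library. Ddx58 exceeded Ifih1 2.35, 2.39 and 2.30-fold in TPM (mean 2.34 ± 0.0488), and Dhx58 exceeded Ifih1 1.63, 1.67 and 1.70-fold (mean 1.66 ± 0.0326). Ddx58 exceeded Dhx58 1.44, 1.44 and 1.35-fold. The 3 genes summed to 68.6, 40.9 and 43.4 TPM, or 45.6%, 40.6% and 40.7% of the TPM of all 10.

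Promoter windows from RefSeq (GRCm38.p6, 250 bases before to 50 after the start) were available for 7 of the 10 genes: Ddx58, Ifih1, Ikbke, Tbk1, Mavs, Traf3 and Ticam1. They were searched on both strands for GAAANNGAAA, the core of the interferon-stimulated response element, which interferon-activated factors bind. A match was held by 1131 of all 32851 windows in the table (3.44%), and among the 7 genes Ddx58 and Ifih1 did. The 2 sites are shown because these genes were also among those that differed most between libraries, with 10 bases on each side of the match where the window allows. Dhx58, Ikbke and Tmem173 were among those too, but Dhx58 and Tmem173 had no window and that of Ikbke held no match. A link between the sites and these differences was not tested. Both sites lie just inside the transcribed part, at bases 33 to 42 of Ifih1 and, on the opposite strand, at bases 3 to 12 of Ddx58, counted from the RefSeq start. Capitals mark the match as read on the gene's strand.
Ifih1 (chr2:62646206-62646233, minus strand): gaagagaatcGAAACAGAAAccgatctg
Ddx58 (chr4:40239804-40239833, minus strand): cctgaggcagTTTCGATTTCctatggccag

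Upstream of Ddx58 the GAAA repeat occurs with a spacing of 1 base, GAAANGAAA, a variant looked for after the sites above had been seen. It was present in 1040 of the 32851 windows (3.17%) and in no other of the 7. The bases before the annotated exon of Ddx58 follow, with that match in capitals.
Ddx58 upstream (chr4:40239829-40240075, minus strand): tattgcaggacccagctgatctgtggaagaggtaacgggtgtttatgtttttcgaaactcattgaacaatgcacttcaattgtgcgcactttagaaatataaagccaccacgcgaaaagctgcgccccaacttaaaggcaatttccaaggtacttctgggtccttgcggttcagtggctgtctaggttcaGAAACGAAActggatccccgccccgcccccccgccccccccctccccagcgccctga
The core of the gamma-activated sequence, TTCNNNGAA, was in 2726 windows (8.30%) and in none of the 7. A match says only that these letters are present in the window.

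The kinases stood at similar levels to each other. Ikbke (ENSMUSG00000042349.13, chromosome 1, 131254343 to 131279606, minus strand), for the inducible kinase IKK-epsilon, was at 22.7, 14.1 and 18.2 TPM, a mean of 18.3 ± 4.30 (SD, n = 3) and rank 2003. Tbk1 (ENSMUSG00000020115.3, chromosome 10, 121546455 to 121586787, minus strand), for the kinase on which the branches meet, was at 18.1, 13.9 and 15.02 TPM, a mean of 15.7 ± 2.19 and rank 2353. Ikbke exceeded Tbk1 by 1.25, 1.02 and 1.21-fold, so the pair was nearly level in replicate 2. Ikbke overlaps 2 antisense genes, Gm28914 and Gm28913, which held at most 13 expected counts in any library. An antisense gene of Dhx58 held at most 2, and a gene opposite Traf3 held 0. Use of strand in the counting is not given in the sources used here, so reads of such overlaps cannot be told apart.

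Mavs and Traf3 link the sensors and receptors to those kinases. Mavs (ENSMUSG00000037523.13, chromosome 2, 131234063 to 131248025, plus strand), the adaptor of the helicases, was at 11.7, 9.18 and 8.65 TPM, a mean of 9.85 ± 1.65 and rank 3577. Traf3 (ENSMUSG00000021277.16, chromosome 12, 111166370 to 111267153, plus strand), the ubiquitin ligase shared by the routes, was the lowest of the 10 at 3.79, 2.99 and 2.77 TPM, a mean of 3.18 ± 0.537 and rank 6982. Tbk1 exceeded Traf3 4.95 ± 0.417-fold (n = 3). 

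Several of these genes were spread over more than 1 transcript. The 10 genes have 57 annotated transcripts, of which 9 had 0 expected counts in all 3 libraries, and the most abundant transcript of each gene was a protein-coding one. Its share of the gene's TPM had a median of 76.3% over the 10 genes in the RSEM-format tables. In the kallisto-format tables the same transcript came first in 9 of 10 genes, all but Ifih1.

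Ifih1 divided between Ifih1-201 and Ifih1-202, and the tables did not give the same order. Ifih1-201 took 67.9%, 76.3% and 66.3% in the RSEM-format tables (mean 70.2 ± 5.33) and 36.9 ± 3.89% in the kallisto-format ones. Ifih1-202 took 27.1%, 18.2% and 24.1% (mean 23.1 ± 4.56) in the RSEM-format tables and 54.4%, 52.4% and 45.4% (mean 50.7 ± 4.76) in the kallisto-format ones. Ifih1-202 lacks exon 3 of Ifih1-201, which is 147 bases long, and its 3′ end is 1649 bases shorter. Reads over the junctions of that exon were not analysed here.

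Ikbke, Traf3 and Mavs also had minor transcripts that lack a short exon of the main one or contain one more. Ikbke-201 took 78.4 ± 4.48% of TPM and Ikbke-204, which lacks the 72-base exon 4, took 15.5%, 12.5% and 9.24% (mean 12.4 ± 3.15). Traf3-203, which does not contain the 75-base exon 8 of Traf3-201, took 6.86%, 6.69% and 3.25%. Mavs-203, annotated as a target of nonsense-mediated decay, contains 91 bases that Mavs-201 lacks and took 2.64%, 3.05% and 6.13%. The first 3 exons have lengths divisible by 3, and that of Mavs-203 does not. The 4 exons are printed whole on mm10, on the gene's strand, because each is in one of the transcripts compared and not in the other, though these transcripts also differ elsewhere.
Ifih1-201 exon 3 (chr2:62635056-62635202, minus strand): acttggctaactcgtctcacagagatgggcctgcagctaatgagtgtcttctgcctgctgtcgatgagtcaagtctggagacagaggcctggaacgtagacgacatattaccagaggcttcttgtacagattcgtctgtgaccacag
Ikbke-201 exon 4 (chr1:131275707-131275778, minus strand): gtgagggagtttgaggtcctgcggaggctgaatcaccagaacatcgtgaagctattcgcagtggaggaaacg
Traf3-201 exon 8 (chr12:111251130-111251204, plus strand): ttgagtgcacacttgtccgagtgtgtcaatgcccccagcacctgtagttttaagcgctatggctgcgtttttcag
Mavs-203 exon 3 (chr2:131239452-131239542, plus strand): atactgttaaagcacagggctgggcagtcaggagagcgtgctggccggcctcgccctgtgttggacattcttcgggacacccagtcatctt

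Other transcripts of these genes differed in their ends or length. Ddx58-201 took 71.8%, 71.7% and 66.1% of the gene's TPM (mean 69.9 ± 3.26). Ddx58-205, a transcript without an annotated reading frame, took 26.5%, 26.6% and 25.4% (mean 26.2 ± 0.669), or 13.5 ± 0.741% in the kallisto-format tables. It has 9 exons, 7 of them with the same bounds as in the 18-exon Ddx58-201, and it extends 1072 bases beyond its 3′ end. Mavs-202, a protein-coding transcript of 3057 bases beside the 2867 of Mavs-201, took 22.3 ± 2.77% beside 73.8 ± 2.16% for Mavs-201. Traf3-204 is 645 bases long and took 21 ± 3.43% of TPM but 1.63% of expected counts, beside 73.4 ± 1.54% of TPM and 91.6% of counts for Traf3-201. Dhx58-201 (94.8 ± 2.75%) and Tbk1-201 (94.6 ± 4.19%) left little to other transcripts in the RSEM-format tables. In the kallisto-format tables Dhx58-201 took 87.1% and Tbk1-201 took 74.1%.

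**Figure D2:**
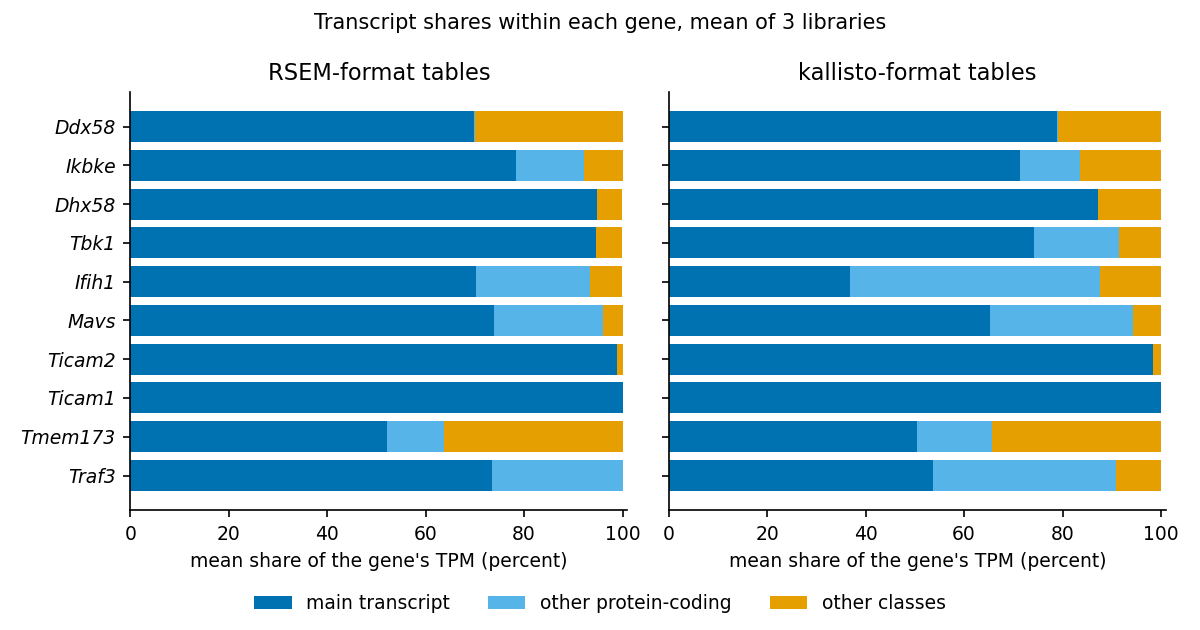
Mean share of each gene's TPM (horizontal axis, percent, 3 libraries) taken by its main transcript (dark blue), its other protein-coding transcripts (light blue) and transcripts of other classes (orange), from the RSEM-format (left) and kallisto-format (right) tables. The main transcript of Ifih1 takes 70.2% on the left and 36.9% on the right, and that of Ticam1, the only one annotated, takes 100%.

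Transcripts not annotated as protein-coding took their highest share in replicate 3 in 7 of the 9 genes that have any, and in 8 of 9 in the kallisto-format tables. The same count was not made over all genes, so how common this pattern is among them is not known. The exceptions in the RSEM-format tables were Tmem173 (35.3%, 37.0% and 36.8%) and Traf3 (0% in each library). Retained-intron transcripts of Ikbke took 5.50%, 2.97% and 15.1% of its TPM. Over all protein-coding genes the share of non-coding transcripts was also highest in replicate 3, at 6.71%, 6.76% and 7.5%, and that of retained-intron transcripts was 2.88%, 2.81% and 3.55%. The part of this library-wide difference in the values of the 10 genes was not tested.

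The Toll-like receptor adaptors and STING had lower means than the helicases and kinases. Ticam1 (ENSMUSG00000047123.8, chromosome 17, 56269319 to 56276786, minus strand), for TRIF, was at 8.02, 7.22 and 6.32 TPM, a mean of 7.19 ± 0.850 (SD, n = 3) and rank 4514, and has 1 annotated transcript. Ticam2 (ENSMUSG00000056130.10, chromosome 18, 46557291 to 46574533, minus strand), for the bridging adaptor TRAM, was at 9.92, 7.03 and 7.16 TPM, a mean of 8.04 ± 1.63 and rank 4183. Ticam2 overlaps Tmed7 on the same strand, and Ticam2-201 shares 838 exonic bases with Tmed7-201. Tmed7 as a whole gene was at 32.3, 21.6 and 24.2 TPM, and Tmed7-201 at 0, 0.17 and 0 TPM. How reads of the shared bases were divided is uncertain, and so is the level of Ticam2. Ticam2 exceeded Ticam1 1.24-fold in replicate 1 and 1.13-fold in replicate 3, and in replicate 2 the ratio was 0.974.

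Tmem173 (ENSMUSG00000024349.10, chromosome 18, 35733679 to 35740554, minus strand), for STING, was at 7.48, 5.37 and 5.19 TPM, a mean of 6.01 ± 1.27 and rank 5084. Of the 10 genes it gave its main transcript the smallest share in the RSEM-format tables. Tmem173-201 took 54.3%, 52.0% and 50.3% (mean 52.2 ± 2.00), and the retained-intron transcript Tmem173-206 took 34.4%, 36.4% and 29.3% (mean 33.4 ± 3.68). The latter has 4 exons to the 8 of Tmem173-201 and starts with 119 bases of intron. It held 23.4% of the gene's expected counts.

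Most pairs of the 10 genes kept their order in every library. Of the 45 pairs, 42 had the same order in all 3 libraries, and in 37 of these the mean difference in log2(TPM + 1) was also more than 2 SD. With 3 libraries the exact two-sided sign-flip permutation test cannot give a p below 0.25, so the order is a description. Between neighbours the largest steps were from Tmem173 to Traf3 (0.74 ± 0.08 log2 units) and from Tbk1 to Ifih1 (0.60 ± 0.20). The steps from Ddx58 to Ikbke (0.35 ± 0.19), from Mavs to Ticam2 (0.27 ± 0.06) and from Ticam1 to Tmem173 (0.23 ± 0.14) also had 1 sign in every library. The other 4 steps were smaller than their SD: Ikbke to Dhx58 (0.12 ± 0.14), Dhx58 to Tbk1 (0.08 ± 0.19), Ifih1 to Mavs (0.02 ± 0.19) and Ticam2 to Ticam1 (0.13 ± 0.16). Among them only Ikbke stood above Dhx58 in all 3 libraries.

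The spread between libraries was read from CPM, counts scaled to library size, with TMM scaling, which sets the bulk of genes to a common level in the 3 libraries. No gene of the 10 had a highest CPM at least 1.5 times its lowest, a range that 1977 of 12413 genes past the low-count filter reached (15.9%). Among the 7722 genes with a mean CPM of at least 10, where all 10 genes lie, 3.96% reached it. At a ratio of 1.25, a threshold added after the values were seen, 5 of 10 passed beside 34.3% of all genes and 17.1% of those with a mean CPM of at least 10. These were Ddx58 (196, 139 and 135 CPM, ratio 1.46), Ifih1 (110, 78.3 and 79.6, ratio 1.40), Dhx58 (82.3, 58.8 and 61.3, ratio 1.40), Ikbke (111, 83.4 and 99.8, ratio 1.33) and Tmem173 (19.9, 18.0 and 15.8, ratio 1.26). The median ratio was 1.25 over the 10 genes, 1.17 over all genes past the filter and 1.13 over those with a mean CPM of at least 10.

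Tbk1 varied least, at 84.0, 78.5 and 78.0 CPM (ratio 1.08). Its SD on the log2 CPM scale was 0.059, beside 0.30 for Ddx58. The median SD was 0.12 over all genes past the filter and 0.093 over those with a mean CPM of at least 10. Ticam1 (38.4, 40.8 and 35.4 CPM) had a ratio of 1.15 and Mavs (54.7, 50.3 and 47.0 CPM) of 1.16. Without replicate 1 the ratios of Ddx58, Ifih1 and Dhx58 dropped to 1.03, 1.01 and 1.04, so the range of the helicases lay between replicate 1 and the other two.

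**Figure D3:**
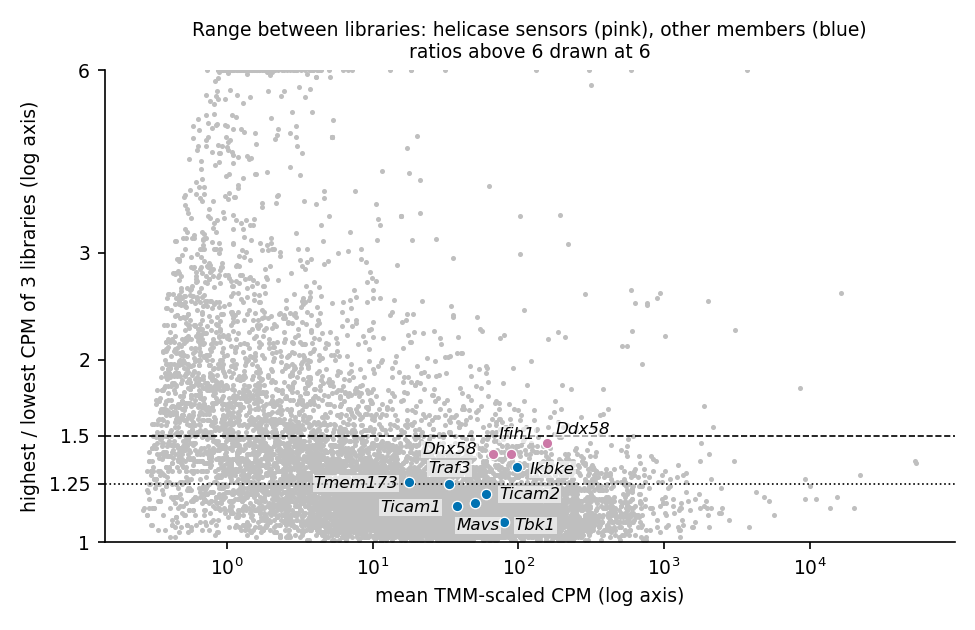
Ratio of the highest to the lowest TMM-scaled CPM over the 3 libraries (vertical, log axis) against mean CPM (horizontal, log axis) for 12413 genes (grey; ratios above 6 are drawn at 6), with the helicases in pink and the other 7 genes in blue; lines mark ratios of 1.5 (dashed) and 1.25 (dotted). All 10 genes lie below 1.5, with the helicases between 1.40 and 1.46.

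Replicate 1 stood above the other libraries in most of the 10 genes, and most in the helicases. On the log2 CPM scale replicate 1 minus the mean of the other two was 0.52 for Ddx58, 0.48 for Ifih1 and 0.46 for Dhx58. For the other 7 it ran from 0.02 for Ticam1 to 0.28 for Ikbke, and the median over all genes was -0.01. Replicate 1 was the highest library in 9 of 10 genes, Ticam1 excepted, and in 33.0% of the 12413 genes past the filter. The helicases' mean less that of the other 7 was 0.30 in replicate 1, -0.21 in replicate 2 and -0.09 in replicate 3. Without replicate 1 the last value turned to 0.08, which is replicate 3 minus replicate 2.

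The same library was high for interferon-stimulated genes. The list of 16 such genes was chosen with earlier results of these data known. Of the 16 genes, 16 were highest in replicate 1, beside 33% of all genes past the filter. A ratio of at least 1.5 was found in 13 of 16. It was found in 15.9% of all genes and 3.96% of those with a mean CPM of at least 10, as all 16 have. The median difference of the 16 genes in each library from the other two was 0.69, -0.42 and -0.34 log2 units. This was above that of the helicases in replicate 1 and below it in the others. Bst2 (178, 91.7 and 90.5 TPM), Ifit2 (147, 56.2 and 66.0) and Ifit3 (122, 57.6 and 61.0) were the most abundant, and Cxcl10 (ratio 4.06) and Ifi44 (ratio 2.94) the widest. In cytosolic RNA pooled over many cells, more cells that express a gene and more RNA per cell cannot be told apart. The part of the interferon-stimulated genes' difference in the range of the helicases was not tested.

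**Figure D4:**
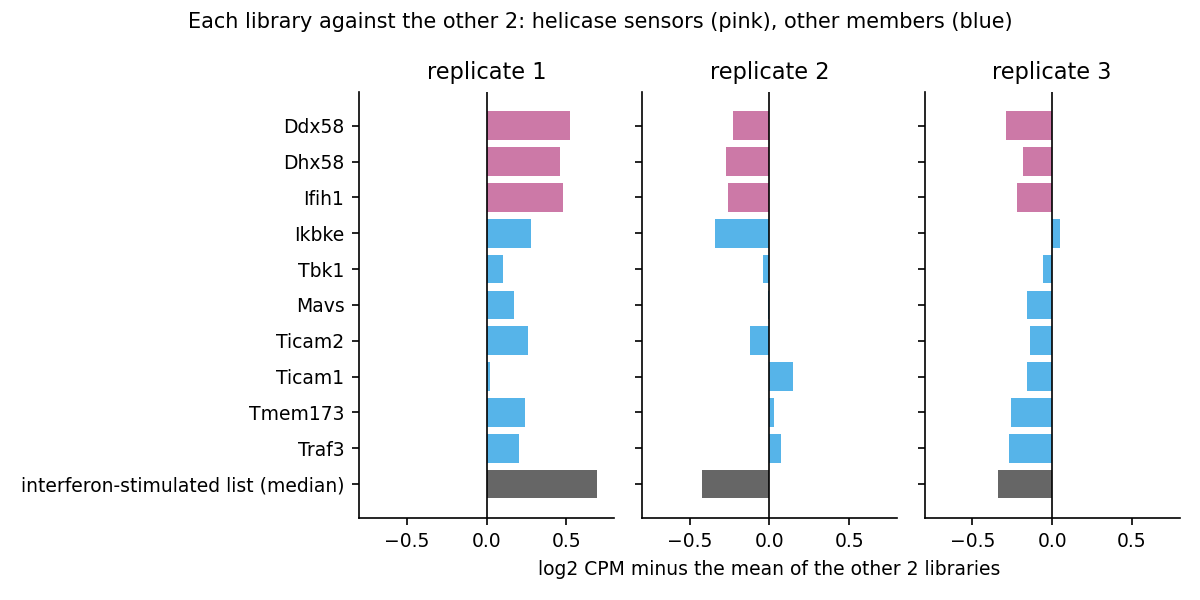
Log2 CPM in each library minus the mean of the other two (horizontal axis; 1 panel per library) for the helicases (pink), the other 7 genes (blue) and the median of the 16 interferon-stimulated genes (grey). The helicases lie at 0.46 to 0.52 in replicate 1 and below 0 in replicates 2 and 3.

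For each helicase the protein-coding genes with the most similar pattern over the 3 libraries were sought among the 11235 past the filter, by the Euclidean distance between centred log2 CPM values. Gbp7, an interferon-inducible GTPase (distance 0.0169, 138, 96.1 and 93.3 CPM), Ahrr (0.0298) and Gm5431 (0.0309) were nearest to Ddx58. Stat4 (0.00171), Ifi211 (0.00450) and Ciita (0.0162) were nearest to Ifih1, and Lpcat2 (0.00563), Ifi35 (0.0102) and Ift81 (0.0161) to Dhx58. The lowest of these genes were Stat4 (2.42, 1.71 and 1.74 CPM) and Ift81 (1.69, 1.2 and 1.26 CPM). With 3 points such nearness is not special to the genes named: 77, 107 and 124 of the 11235 lay within 0.1 of Ddx58, Ifih1 and Dhx58. By the same measure Ifih1 was 24th and Dhx58 64th nearest to Ddx58, at distances of 0.0602 and 0.0924, while Ticam1 was 4957th at 0.429.

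The rest of the pathway was described from 7 lists that hold 71 other genes. Of these, 63 were detected in every library and 8 were below a TPM of 1 in every one, with a median of 11.3 TPM. A ratio of at least 1.5 was reached by 8 of the 64 past the filter, beside 15.9% of all genes. All 8 were among the 59 with a mean CPM of at least 10, beside 3.96% of all genes at that level.

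Upstream of TRIF, all 4 listed receptor genes were detected and none had a ratio of 1.5. Cd14, the co-receptor that delivers lipopolysaccharide, was at 39.8 ± 4.06 TPM (SD, n = 3), Tlr4 at 29.0 ± 4.53 and Ly96, its lipid A-binding subunit, at 14.6 ± 3.35. Tlr3, the double-stranded RNA receptor of endosomes, was at 5.40, 3.74 and 4.12 TPM, the lowest of the 4, and its ratio of 1.41 was the widest of them.

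Of 15 other sensors of nucleic acids 14 were detected, with a median of 14.6 TPM. The DNA-binding protein genes Ifi204 (77.3 ± 18.0 TPM) and Ifi203 (36.3 ± 12.4) were among the highest. Ifi204 and Ifi203 belong to a family of near copies, so the division of reads between them is uncertain. A ratio of at least 1.5 was found in 4 of 15, beside 15.9% of all genes past the filter. All 4 were among the 13 with a mean CPM of at least 10, where the share of all genes was 3.96%, and all but Oas2 had their highest CPM in replicate 1. They were Zbp1, a sensor of Z-form nucleic acid (43.5, 20.1 and 20.0 TPM, ratio 1.81), Oas3 (33.6, 18.9 and 17.8 TPM, ratio 1.66), Ifi203 (ratio 1.55) and, named after its value was seen, Oas2 (57.2, 36.8 and 60.2 CPM, ratio 1.64). Zcchc3, a cofactor of RNA and DNA sensing, was below 1 in every library (0.21 ± 0.0173 TPM). Cgas, which makes the ligand of STING and was singled out here for that role after its values were seen, stood at 1.52, 1.14 and 1.44 TPM, the lowest of the 14.

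Of 14 genes listed as sensor cofactors and regulators 13 were detected, and none had a ratio of 1.5. Pcbp2, which promotes the turnover of MAVS, was at 134 ± 24.7 TPM, and the phosphatase genes Ppp1ca (71.6 ± 13.9) and Ppp1cc (62.5 ± 12.5), whose products activate RIG-I and MDA5, came next. The ubiquitin ligase gene Rnf135, which acts on RIG-I, was at 4.82 ± 1.06 TPM and had a ratio of 1.27, as did Ppp1ca. Rnf125, another ligase of RIG-I, was below 1 in every library (0.06 ± 0.0361 TPM).

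All 16 partners of TRIF, MAVS and the kinases were detected, at a median of 7.25 TPM, and none reached a ratio of 1.5. Tax1bp1 (40.5 ± 3.87 TPM), Casp8 (19.3 ± 3.05) and Ripk1 (18.0 ± 1.44), the last a kinase that TRIF binds for cell death and NF-kB signalling, were highest. The widest were Tradd (4.93 ± 0.560 TPM, ratio 1.27) and Azi2, an adaptor of TBK1 (11.3 ± 2.35 TPM, ratio 1.24).

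The 6 transcription factors downstream were all detected. Irf7 (80.2, 45.1 and 39.7 TPM, ratio 1.71) and Irf1 (26.6, 15 and 14.5 TPM, ratio 1.60) had a ratio above 1.5 and were high in replicate 1, and Irf5 was at 32.4 ± 4.25 TPM. Irf7 is also among the interferon-stimulated genes above. Irf3, the direct substrate of TBK1, named after its values were seen, was at 9.34, 8.42 and 10.4 TPM, with no high value in replicate 1.

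Of 9 interferon and chemokine targets 3 were detected: Ccl5 (28.5 ± 5.14 TPM), Ifit1 (31.8, 14.6 and 14.1 TPM, ratio 1.94) and Cxcl10 (22.8, 5.81 and 4.75 TPM). Ifit1 and Cxcl10 also stand in the interferon-stimulated list. The interferon genes were below 1 in every library. Ifna4, Ifna5 and Ifnl3 had 0 counts in each, which allows up to 3 counts, or 0.114, 0.0716 and 0.0533 CPM, in replicates 1, 2 and 3. Ifnb1, the gene at the end of the TRIF route, also named after its values were seen, had 3, 3 and 1 expected counts. These correspond to 0.12, 0.07 and 0.02 TPM, and so few counts allow no order of the libraries.

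All 7 nuclease and RNA-editing genes that limit sensing were detected, at a median of 15.1 TPM. Samhd1, which depletes nucleotides (108 ± 20.4 TPM), Dnase2a, the lysosomal DNase (48.5 ± 6.26), and Trex1, the cytosolic DNase (27.7 ± 7.71), were highest. Trex1 (ratio 1.37) and Samhd1 (ratio 1.27) were also the widest, both under 1.5.

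**Figure D5:**
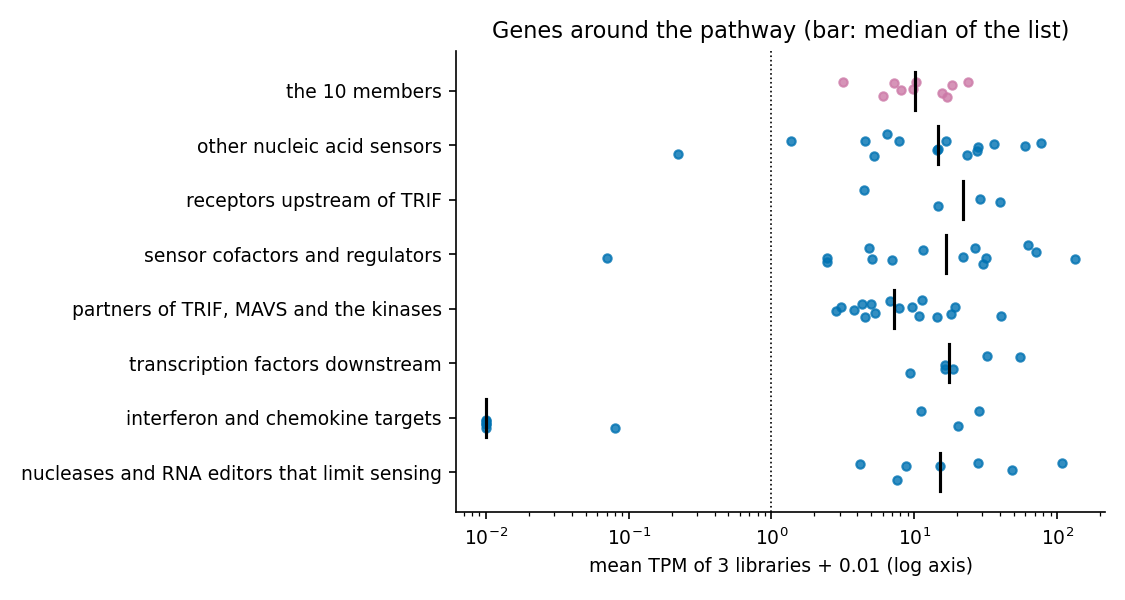
Mean TPM over 3 libraries plus 0.01 (horizontal, log axis) of the 10 genes (pink) and of each gene of the 7 pathway lists (blue), with the median of each list (bar) and a TPM of 1 (dotted). Most lists centre between 7.25 and 21.8 TPM, while 6 of the 9 interferon and chemokine targets lie near 0.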

How the data were processed

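Cytosolic total RNA of 3 macrophage libraries was measured by RNA sequencing. Values refer, per the labels and deposited notes, to mm10 and GENCODE M21. Per the file headers, the gene tables and 1 set of transcript tables have RSEM's columns and the other set has kallisto's; the tools and their versions are not given in the sources used here. The authors deposited expected counts, TPM (maximum likelihood and posterior mean), FPKM and, per isoform, its percent of the gene's TPM. The kallisto-format tables hold estimated counts and TPM by the authors.

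Genes were matched by symbol in the GENCODE M21 annotation, which held all 55536 gene identifiers. Expected counts were rounded and scaled with edgeR 4.0.16 (R 4.3.3): its low-count filter, TMM factors of 1.04, 0.992 and 0.971, log2 CPM with a prior count of 2, and an intercept only. The scaling was tested on simulated data. Counting errors and the floor of 3 counts cover counting error only. No test between conditions was possible with 1 group. Order was read from log2(TPM + 1). Alternatives used DESeq2 1.42.0 size factors, other units, thresholds and left-out replicates.

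All 10 genes are named. Of each pathway list the 3 highest, up to 3 below a TPM of 1 and the 2 widest are named, and for each of the 3 widest members the 3 nearest genes; 1 gene that the rule takes is not reported here. The genes and lists were chosen with earlier results of these data known.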

Additional observations from a re-analysis of the deposited data

How the results depend on the processing

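No paired analysis was possible because the samples form 1 group. The median level of the 10 genes (10 TPM) was 4.65 with kallisto-format TPM, 42.6 with TPM rescaled to protein-coding genes, 44.9 with both (added after the data were seen), 19.1 in FPKM and 9.93 with posterior means, and 8.66 to 10.7 when 1 replicate was left out. These units differ by construction. Of the 9 neighbouring pairs in the order of levels, 6 kept 1 sign in every library, 5 with posterior means and 6 to 8 with 1 replicate left out. Dhx58 above Tbk1 (0.08 log2 units) became -0.15 with kallisto-format TPM and -0.03 without replicate 1, and Ifih1 above Mavs (0.02) became -0.08 without replicate 1. These 3 were the changes of sign among 63 such values. The count of genes with a ratio of at least 1.5 (0) was 1 with library size alone (Ddx58, 1.56), 4 from TPM (background 23.1%) and 0 with DESeq2 size factors, with kallisto-format counts (background 22.5%), without the filter (background 51.7%) and with any 1 replicate left out (0 to 0). It was 5 at a ratio of 1.25. The median share of the main transcript (76.3%) was 73.4% with kallisto-format TPM, 88.0% from expected counts, and 74.6 to 77.6% with 1 replicate left out. Of 71 pathway genes 63 were detected, 45 at a TPM of at least 5, 61 with kallisto-format TPM and 63 with any 1 replicate left out. The helicases less the other 7 genes ranged from 0.26 to 0.35 in replicate 1 and from -0.35 to -0.08 in replicate 2 when another replicate was left out. In replicate 3 the value (-0.09) was 0.08 without replicate 1 and -0.26 without replicate 2, since 1 library then remained to compare with. Depth limits the genes near 0 counts, such as the interferon genes, and not the 10 genes.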
